A study of Mus musculus with 10 samples.

Results

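The genes described here are 40 genes of embryo compaction, cell polarity and cell junctions, picked by symbol from the 24411 genes that each table lists. They comprised 6 genes of cadherin-catenin adhesion, 9 of the tight junction, 8 of apical polarity, 4 of basolateral polarity, 6 of the desmosome, 3 membrane-actin linkers, 2 connexins and 2 integrins. Every one of the 40 had a row in all 10 tables. The RNA came from mouse morulae produced by in vitro fertilization, pooled at 10 embryos to a library, so differences between single embryos are not visible. Zygotes were microinjected 3 to 6 h after insemination with an antisense oligonucleotide (ASO), a short synthetic strand that pairs with its target RNA, and were then cultured in KSOM medium until 72 h. The Mettl3-ASO group (5 libraries) received an oligonucleotide against Mettl3, the gene of the catalytic subunit of the RNA m6A methyltransferase, and the ASO-Control group (5 libraries) received a non-targeting one. In both groups replicates 3 to 5 are labelled batch 2, and replicates 1 and 2, called untagged here, carry no batch label. The strain is labelled ICR for the untagged libraries and is not given for batch 2. Separate cultures or fertilizations are not stated in the labels, and the p-values therefore reflect variation among these libraries only, part of which may be technical.

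Compaction is the step in late cleavage at which blastomeres flatten against one another. It depends on E-cadherin, which joins neighbouring cells and is tied to actin inside them through beta- and alpha-catenin. The outer cells acquire an apical domain that holds Par proteins, atypical protein kinase C and ezrin, and a basolateral domain marked by the Scribble, Discs large and Lethal giant larvae proteins. Tight junctions and desmosomes then seal and strengthen the outer layer, the future trophectoderm, so that fluid can be held in the blastocoel.

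Levels are given as FPKM, the number of fragments scaled to transcript length and to library depth, and total expected counts ran from 9905830 to 13530284 in the untagged libraries and from 21412857 to 32327283 in batch 2. Mettl3 itself ran from 0 to 0.0400 FPKM in the Mettl3-ASO libraries, against 6.58 to 12.7 FPKM in the ASO-Control libraries. Correlations between libraries were 0.912 to 0.963 within Mettl3-ASO, 0.955 to 0.979 within ASO-Control and 0.815 to 0.905 between the groups. All 10 morula markers on the list were detected. Their summed level was 23735 to 44566 FPKM in Mettl3-ASO libraries and 17104 to 26311 FPKM in ASO-Control libraries, of which Dppa3 alone made up 22837 to 44271 and 15998 to 25892 FPKM. Of the 9 markers tested with edgeR, 5 fell and 2 rose. Dppa3 (log2 fold change of 0.62 ± 0.09, adjusted p = 1.7e-04) and Nanog (1.07 ± 0.27, adjusted p = 0.00507) rose. The trophectoderm genes Krt18 (log2 fold change of -2.71 ± 0.38, adjusted p = 1.1e-04) and Gata3 (-2.19 ± 0.37, adjusted p = 3.8e-04) fell in edgeR's test, and the part of these changes in the junction results was not tested. Cumulus cells, which surround the oocyte, were looked for with 15 markers. Of these, 14 averaged under 1 FPKM and 5 were at 0 in all libraries (Amh, Inhba, Cyp19a1, Has2 and Lhcgr), and their summed level was 1.55 to 3.17 FPKM in Mettl3-ASO libraries and 0.870 to 2.21 FPKM in ASO-Control libraries.

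Taken as a set, these genes were mostly lower in the Mettl3-ASO morulae. The polarity genes were mixed, with median log2 fold changes of -0.27 (apical) and 0.41 (basolateral). Of the 40 genes, 37 averaged at least 1 FPKM over the 10 libraries and were tested, and Tjp3, Scrib and Pkp3 were under that level. In edgeR's quasi-likelihood test with a term for batch, 21 of the 37 fell and 3 rose (Ctnnd1, Crb3 and Rdx) at a Benjamini-Hochberg adjusted p under 0.05, and 13 did not pass. That is 56.8% lower and 8.11% higher, against 24.0% lower and 25.4% higher among all 9522 genes tested, of which 49.4% passed in either direction. The median log2 fold change of Mettl3-ASO over ASO-Control was -0.82 over the 37 genes and 0.01 over all genes tested. A fall of at least 2-fold was called for 13 of the 37 (35.1%), against 8.67% of all genes tested. The FPKM of all 5 Mettl3-ASO libraries lay below that of all 5 ASO-Control libraries for 8 of the 37 (21.6%, against 10.6% of all genes tested) and above it for Crb3 alone (2.7%, against 15.0%), where 25.6% of all genes tested had ranges apart in either direction. In pooled embryos, fewer cells of a type and less RNA per cell cannot be told apart. The members were chosen with earlier results of these data known, so these counts describe them and are not independent evidence of a direction.

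**Figure D1:**
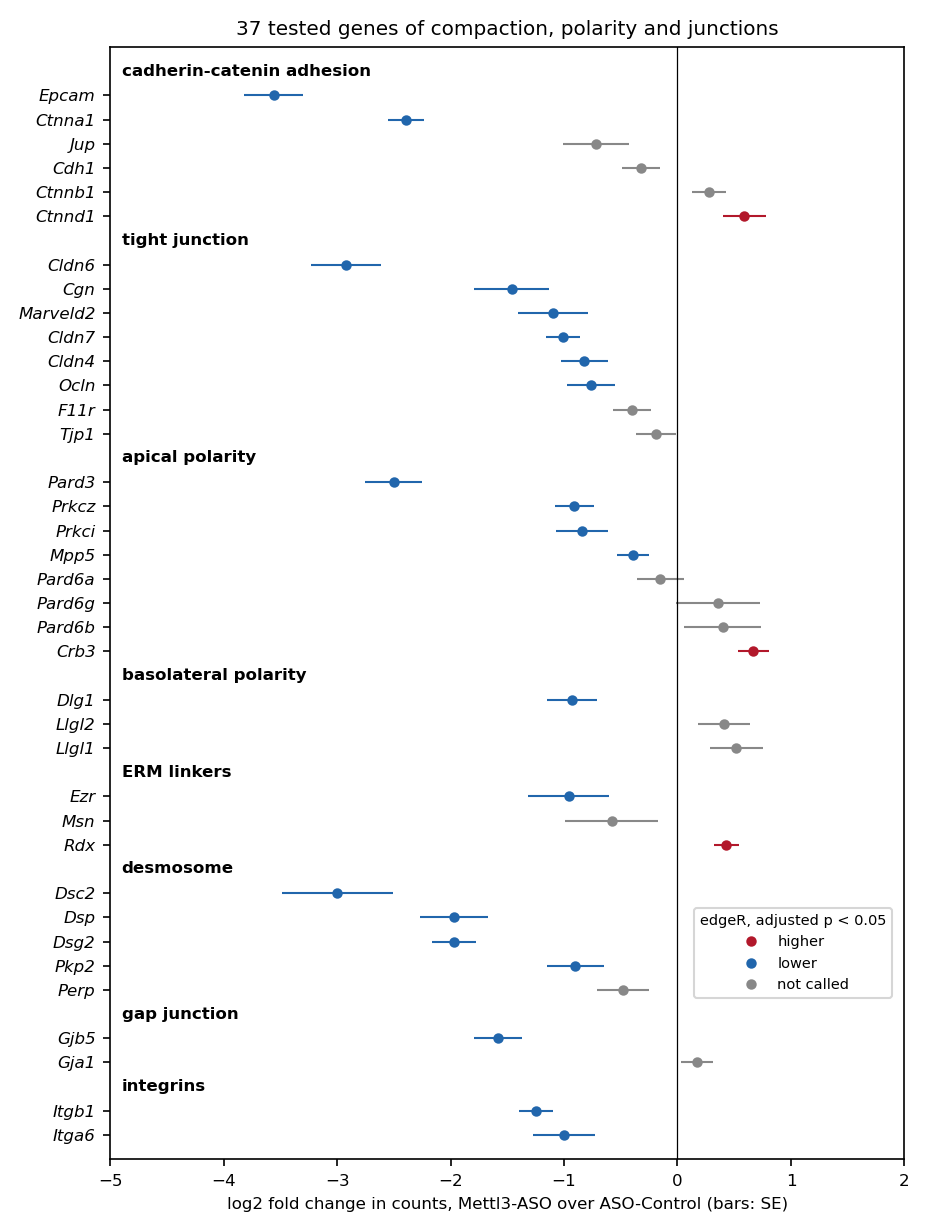
Log2 fold change in counts of Mettl3-ASO over ASO-Control for each of the 37 tested genes, ordered within their roles, with bars of 1 standard error. Blue points (21 genes) fell and red points (3 genes) rose at an adjusted p under 0.05 in edgeR's test, and grey points (13 genes) did not pass. Epcam lies farthest to the left at -3.56.

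The sequence in front of these genes was examined because many of them moved in one direction. RefSeq promoter windows (build GRCm38.p6, 250 bases ahead of each annotated start) were at hand for 28 of the 40 genes. The stretches shown belong to genes that fell, and capitals mark a match to the AP-2 motif GCCNNNGGC or to the TEAD motif CATTCC, each searched on both strands. AP-2 gamma and TEAD4 are transcription factors known in the mouse for driving apical domain formation in cleavage embryos. The Dsp window holds an AP-2 match, and the Epcam window holds neither motif. The Itgb1 window and the Cldn7 window shown hold a TEAD match read on the other strand. Another Cldn7 window (chr11:69965171-69965420, not shown) holds neither.
Epcam, chr17:87635729-87635978, plus strand: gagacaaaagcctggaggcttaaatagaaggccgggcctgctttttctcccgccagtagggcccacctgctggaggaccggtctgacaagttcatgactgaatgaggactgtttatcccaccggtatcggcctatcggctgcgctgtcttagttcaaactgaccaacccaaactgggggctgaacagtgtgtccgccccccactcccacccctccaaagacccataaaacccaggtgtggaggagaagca
Cldn7, chr11:69964529-69964778, plus strand: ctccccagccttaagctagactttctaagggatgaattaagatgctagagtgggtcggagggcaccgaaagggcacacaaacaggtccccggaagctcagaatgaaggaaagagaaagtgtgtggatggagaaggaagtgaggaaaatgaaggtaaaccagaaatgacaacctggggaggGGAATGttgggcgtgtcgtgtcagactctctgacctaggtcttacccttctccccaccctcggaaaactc
Dsp, chr13:38151044-38151293, plus strand: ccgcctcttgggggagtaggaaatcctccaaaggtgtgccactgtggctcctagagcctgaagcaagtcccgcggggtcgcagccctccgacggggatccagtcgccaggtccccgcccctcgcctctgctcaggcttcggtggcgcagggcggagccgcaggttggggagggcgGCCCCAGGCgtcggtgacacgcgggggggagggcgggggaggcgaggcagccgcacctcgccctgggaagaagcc
Itgb1, chr8:128685404-128685653, plus strand: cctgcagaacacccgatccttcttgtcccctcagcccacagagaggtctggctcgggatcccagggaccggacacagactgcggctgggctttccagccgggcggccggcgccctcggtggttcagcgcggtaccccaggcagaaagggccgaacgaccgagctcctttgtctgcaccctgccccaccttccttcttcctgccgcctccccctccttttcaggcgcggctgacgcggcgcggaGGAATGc
The AP-2 motif was found in 10 of the 28 genes (35.7%), against 15.4% of all genes in the promoter table and 22.9% of the tested genes with an entry. Among genes of the set that fell it was found in 7 of 15 (46.7%). The TEAD motif was found in 4 of the 28 genes (14.3%), against 14.4% of all genes and 12.2% of tested genes, and in 3 of the 15 that fell (20%). The median GC content of the windows was 60.0% for the set, 57.4% for its members that fell and 59.6% for all tested genes. These shares count a gene once if any of its windows matched, so genes with more windows had more chances of a match. The 28 genes had 43 windows, and the 15 that fell had 24. The 7279 tested genes with an entry had 9140 windows, and all 27025 genes had 32851. Shares by window were not compared. A match describes these letters and is not evidence of binding.

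Of the 6 genes of cadherin-catenin adhesion, Epcam and Ctnna1 fell, Ctnnd1 rose, and Cdh1, Ctnnb1 and Jup did not pass. Cdh1 (chromosome 8, 106603351 to 106670246), which encodes E-cadherin, stood at 29.1, 13.6, 16.8, 15.5 and 13.3 FPKM in Mettl3-ASO replicates 1 to 5, against 33.2, 23.7, 18.7, 15.9 and 16.5 FPKM in ASO-Control replicates 1 to 5. The 2 groups overlapped, and replicate 1 was the highest library in each. The Cdh1 log2 fold change was -0.32 ± 0.17 (edgeR, adjusted p = 0.132), and with the replicate number as a block the adjusted p was 0.0335.

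Ctnna1 on chromosome 18 encodes alpha-catenin, which links the cadherin complex to actin. It was measured at 18.5, 9.27, 10.6, 14.0 and 9.48 FPKM in the 5 Mettl3-ASO libraries, against 71.1, 68.3, 60.9, 54.0 and 57.2 FPKM in the 5 ASO-Control libraries. Every Mettl3-ASO library was below every ASO-Control library, with means of 12.4 ± 3.93 and 62.3 ± 7.25 FPKM (SD, n = 5 each). The fall was 5.24-fold (log2 fold change of -2.39 ± 0.16, adjusted p = 5.8e-07 in edgeR's test), and it was nearly equal within the batches, at -2.40 in the untagged libraries and -2.37 in batch 2. Beside it, the beta-catenin gene Ctnnb1 ran from 38.7 to 58.7 FPKM in Mettl3-ASO libraries and from 29.9 to 45.1 FPKM in ASO-Control libraries. The log2 fold change of Ctnnb1 was 0.28 ± 0.15 (adjusted p = 0.124 in edgeR's test, 0.0191 with the replicate block), and 14.6% of its exon bases overlap the Ulk4 gene on the opposite strand. Ctnnd1, the gene of p120-catenin, which keeps cadherins at the cell surface, rose 1.5-fold and spanned 12.5 to 24.1 FPKM in Mettl3-ASO libraries and 7.39 to 14.4 FPKM in ASO-Control libraries. The log2 fold change of Ctnnd1 was 0.59 ± 0.19 (edgeR, adjusted p = 0.0191). Its value is uncertain, because 61.2% of its exon bases are shared with an overlapping annotated gene, Gm28635, which was not analysed here.

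Epcam (chromosome 17, 87635979 to 87651129) encodes an epithelial adhesion molecule, and its promoter is the first of those printed above. It was at 79.2, 21.6, 17.6, 18.9 and 15.5 FPKM in the 5 Mettl3-ASO libraries, against 422, 451, 244, 227 and 229 FPKM in the ASO-Control libraries. No library of one group reached the range of the other, and Mettl3-ASO replicate 1 lay well above the rest of its group. The fall was 11.8-fold (log2 fold change of -3.56 ± 0.26, adjusted p = 1.1e-06 in edgeR's test), and without Mettl3-ASO replicate 1 it was -3.93. Jup, the gene of plakoglobin, a catenin shared by adherens junctions and desmosomes, was at 3.38, 1.58, 0.920, 1.04 and 0.440 FPKM in Mettl3-ASO libraries, against 4.73, 2.33, 1.37, 1.62 and 1.10 FPKM in ASO-Control libraries. The groups overlapped widely, and replicate 1 was highest in both. Its log2 fold change of -0.72 ± 0.29 missed the threshold (edgeR, adjusted p = 0.0534) but passed without Mettl3-ASO replicate 1 (0.0267), without ASO-Control replicate 2 (0.0294) and with the replicate block (0.00906).

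**Figure D2:**
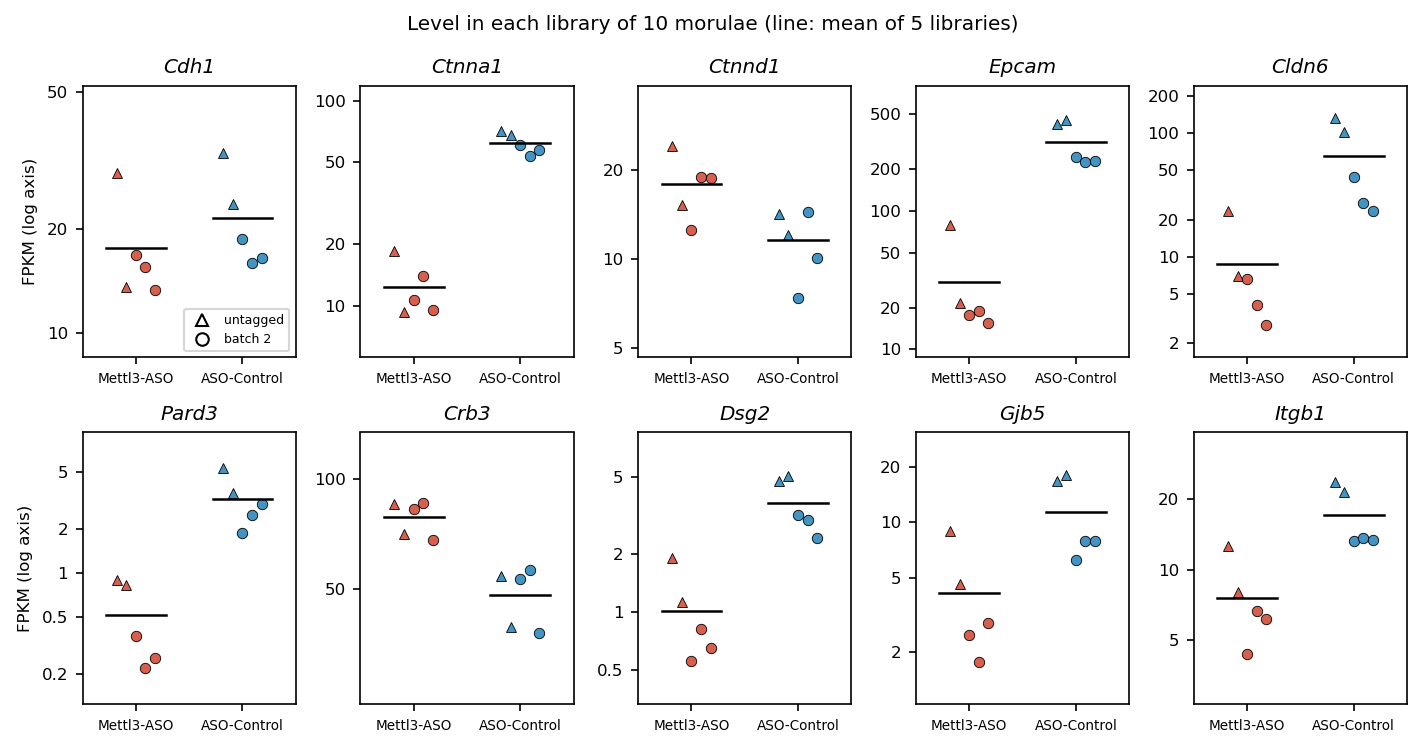
FPKM on a log axis in each library for 10 genes, with Mettl3-ASO left of ASO-Control, triangles for untagged libraries, circles for batch 2 and a line at the mean of 5 libraries. Ctnna1, Epcam, Pard3, Dsg2 and Itgb1 are lower in all 5 Mettl3-ASO libraries than in any ASO-Control library, Crb3 is higher in all 5, and Cdh1 overlaps between the groups.

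Most tight junction genes fell, with the exception of the scaffold and the adhesion receptor. Of 8 tested genes 6 fell (75.0%, against 24.0% of all genes tested), namely Cldn4, Cldn6, Cldn7, Ocln, Cgn and Marveld2. Tjp1 and F11r did not pass, and the median log2 fold change was -0.91. Within single batches, 4 of the 8 fell in batch 2 (against 18.9% of all genes tested) and 2 in the untagged libraries (against 2.47%). Cldn4 and Ocln passed in neither batch alone. Claudins form the paracellular barrier. Cldn6 (chromosome 17, 23679249 to 23682446), a claudin of early embryonic epithelia, was measured at 23.6, 6.97, 6.58, 4.09 and 2.80 FPKM in Mettl3-ASO libraries, against 132, 102, 44.0, 27.1 and 23.4 FPKM in ASO-Control libraries. The groups met at a single point, where Mettl3-ASO replicate 1 lay just above ASO-Control replicate 5, and within each batch they were apart. The fall was 7.55-fold (log2 fold change of -2.92 ± 0.31, edgeR, adjusted p = 1.4e-05), with -3.02 in the untagged libraries and -2.84 in batch 2.

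Cldn7 (chromosome 11, 69964779 to 69967885) was the most abundant claudin of the set, at 228, 121, 91.3, 90.1 and 101 FPKM in Mettl3-ASO libraries, against 396, 372, 183, 130 and 150 FPKM in ASO-Control libraries. Mettl3-ASO replicate 1 exceeded the 3 controls of batch 2, and the other Mettl3-ASO libraries lay below every control. A log2 fold change of -1.01 ± 0.15 was fitted (edgeR, adjusted p = 1.6e-04). Cldn4 ran from 19.2 to 93.1 FPKM in Mettl3-ASO libraries and from 27.8 to 135 FPKM in ASO-Control libraries, with a log2 fold change of -0.82 ± 0.21 (adjusted p = 0.00709 in edgeR's test, 0.0813 without the batch term). Ocln, which encodes the strand protein occludin, fell by 0.76 ± 0.21 on the log2 scale (edgeR, adjusted p = 0.0106). Its levels were 4.19 to 10.6 FPKM in Mettl3-ASO libraries and 8.34 to 18.2 FPKM in ASO-Control libraries.

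Cgn encodes cingulin, which couples tight junctions to actomyosin. It was at 3.10, 0.890, 1.53, 2.57 and 0.900 FPKM in Mettl3-ASO libraries, against 8.28, 5.74, 4.5, 3.81 and 2.68 FPKM in ASO-Control libraries. The ranges overlapped only between Mettl3-ASO replicate 1 and ASO-Control replicate 5, and the log2 fold change was -1.46 ± 0.33 (edgeR, adjusted p = 0.00311). Of the 50-base windows of its transcripts, 17.2% also occur in another gene, so its counts may be shared. Marveld2 encodes tricellulin, which closes the corners where 3 cells meet. The 5 Mettl3-ASO libraries held 2.46, 2.27, 1.22, 1.82 and 0.940 FPKM of Marveld2, against 3.01, 4.16, 5.69, 2.12 and 3.03 FPKM in the ASO-Control libraries. One control, replicate 4, lay inside the Mettl3-ASO range, and the log2 fold change was -1.10 ± 0.31 (edgeR, adjusted p = 0.00991). Within the batches the Marveld2 log2 fold change was -0.54 in the untagged libraries and -1.44 in batch 2.

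The scaffold gene Tjp1, which encodes ZO-1, ran from 3.80 to 5.57 FPKM in Mettl3-ASO libraries and from 3.64 to 6.32 FPKM in ASO-Control libraries, with a log2 fold change of -0.19 ± 0.18 (edgeR, adjusted p = 0.4). F11r encodes the receptor JAM-A and was at 42.4, 62.4, 29.8, 31.4 and 37.8 FPKM in Mettl3-ASO libraries, against 60.0, 76.4, 52.3, 38.8 and 35.4 FPKM in ASO-Control libraries. The groups overlapped, with replicate 2 the highest in each. Its log2 fold change of -0.40 ± 0.17 did not pass (edgeR, adjusted p = 0.0672), but it did without Mettl3-ASO replicate 2 (0.0217) and with the replicate block (0.0228). Tjp3, which encodes ZO-3 and was not tested, ran from 0.380 to 1.44 FPKM in Mettl3-ASO libraries and from 0.490 to 2.11 FPKM in ASO-Control libraries.

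In the apical polarity group the Par3 and atypical PKC genes were lower and the Crumbs gene was higher. Of 8 tested genes Pard3, Prkci, Prkcz and Mpp5 fell, Crb3 rose, and the 3 Pard6 genes did not pass, with a median log2 fold change of -0.27. Pard3 (chromosome 8, 127063893 to 127612286) encodes the Par complex scaffold Par3. It stood at 0.900, 0.820, 0.370, 0.220 and 0.260 FPKM in Mettl3-ASO libraries, against 5.29, 3.57, 1.90, 2.52 and 2.98 FPKM in ASO-Control libraries. All 5 Mettl3-ASO values lay below 1 FPKM and below every control. The fall was 5.64-fold (log2 fold change of -2.50 ± 0.25, edgeR, adjusted p = 1.1e-05). It rested on 204 counts summed over the Mettl3-ASO libraries and 1296 over the ASO-Control libraries.

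Prkci and Prkcz encode the atypical protein kinases C iota and zeta, the catalytic partners in the Par complex. Prkci ran from 3.06 to 9.62 FPKM in Mettl3-ASO libraries and from 6.55 to 12 FPKM in ASO-Control libraries, with a log2 fold change of -0.84 ± 0.23 (edgeR, adjusted p = 0.00971). Prkcz ran from 3.12 to 5.10 FPKM in Mettl3-ASO libraries and from 6.06 to 9.71 FPKM in ASO-Control libraries, ranges that did not meet, with a log2 fold change of -0.91 ± 0.17 (edgeR, adjusted p = 9.6e-04). Of the 50-base windows of the Prkcz transcripts, 14.8% also occur in another gene. The third part of the complex, Par6, showed no change that passed: the log2 fold change was -0.15 ± 0.21 for Pard6a (edgeR, adjusted p = 0.587), 0.40 ± 0.34 for Pard6b (0.355) and 0.36 ± 0.37 for Pard6g (0.443). Pard6a was at 3.82 to 13.5 FPKM in Mettl3-ASO libraries and 4.81 to 9.79 FPKM in ASO-Control libraries. Pard6b was at 5.42 to 21.0 FPKM in Mettl3-ASO libraries and 5.27 to 13.1 FPKM in ASO-Control libraries. Pard6g was the lowest of these paralogs, at 0.740 to 2.37 FPKM in Mettl3-ASO libraries and 0.440 to 1.77 FPKM in ASO-Control libraries.

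Crb3 (chromosome 17, 57059105 to 57065918) encodes the apical membrane protein Crumbs3. Its level was 67.9 to 86.1 FPKM in Mettl3-ASO libraries and 37.6 to 56.3 FPKM in ASO-Control libraries, so that every Mettl3-ASO library lay above every control. The rise was 1.59-fold (log2 fold change of 0.67 ± 0.14, edgeR, adjusted p = 0.00181). Mpp5 encodes Pals1, which binds Crumbs at the membrane. It was measured at 6.26, 6.77, 4.51, 5.26 and 5.14 FPKM in Mettl3-ASO libraries, against 8.13, 8.72, 5.68, 5.76 and 7.32 FPKM in ASO-Control libraries. The ranges overlapped, but within each batch every Mettl3-ASO library was below every control. Its log2 fold change of -0.39 ± 0.14 was close to the threshold (edgeR, adjusted p = 0.0376) and did not pass without Mettl3-ASO replicate 1 (0.0838), 3 (0.0791) or 4 (0.0608) or without ASO-Control replicate 1 (0.0567), 2 (0.0902) or 5 (0.113).

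On the basolateral side Dlg1 fell and the Lgl genes did not pass, and the median log2 fold change of the 3 tested genes was 0.41. Dlg1, which encodes the scaffold Discs large, ran from 2.30 to 5.86 FPKM in Mettl3-ASO libraries and from 6.62 to 9.34 FPKM in ASO-Control libraries without overlap. The log2 fold change of Dlg1 was -0.93 ± 0.22 (edgeR, adjusted p = 0.00342). Llgl1 encodes an Lgl protein that atypical PKC keeps out of the apical domain. It was at 8.13, 3.63, 3.32, 5.09 and 4.16 FPKM in Mettl3-ASO libraries, against 4.27, 2.72, 2.62, 3.98 and 2.48 FPKM in ASO-Control libraries. The ranges overlapped, and in each group replicate 1 was highest. Its log2 fold change was 0.52 ± 0.23 (edgeR, adjusted p = 0.0752), with an adjusted p of 0.0367 without Mettl3-ASO replicate 2, 0.0374 without ASO-Control replicate 4 and 0.0171 with the replicate block. The paralog Llgl2 was at 1.26 to 2.82 FPKM in Mettl3-ASO libraries and 0.990 to 2.34 FPKM in ASO-Control libraries, with a log2 fold change of 0.41 ± 0.23 (edgeR, adjusted p = 0.166). Scrib, under the level for testing, was at 0.460 to 1.28 FPKM in Mettl3-ASO libraries and 0.350 to 1.03 FPKM in ASO-Control libraries.

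Ezrin, radixin and moesin tie the plasma membrane to cortical actin, and their genes did not share a direction. Ezr, whose product marks the apical domain of outer cells, was at 15.1, 5.10, 9.94, 3.01 and 3.97 FPKM in Mettl3-ASO libraries, against 19.4, 11, 14.3, 7.67 and 14.0 FPKM in ASO-Control libraries. Each Mettl3-ASO library was below the control of the same number, although the ranges overlapped and the labels state no pairs. The log2 fold change of -0.96 ± 0.36 passed by a small margin (edgeR, adjusted p = 0.0415). It did not pass without Mettl3-ASO replicate 2 (0.0731), 4 (0.0921) or 5 (0.0984) or without ASO-Control replicate 1 (0.0916), 3 (0.0906) or 5 (0.0956). Rdx was the most abundant of the family, at 28 to 54.0 FPKM in Mettl3-ASO libraries and 24.9 to 41.5 FPKM in ASO-Control libraries, and it rose by 0.43 ± 0.11 on the log2 scale (edgeR, adjusted p = 0.00795). Msn was at 3.69, 2.19, 0.640, 1.28 and 2.30 FPKM in Mettl3-ASO libraries, against 6.37, 8.26, 2.17, 0.700 and 1.31 FPKM in ASO-Control libraries. The untagged Mettl3-ASO libraries lay below the untagged controls, and in batch 2 the groups overlapped. The log2 fold change of Msn was -0.58 ± 0.41 (edgeR, adjusted p = 0.257), and the adjusted p without Mettl3-ASO replicate 5 was 0.0422, with -0.96 on the log2 scale.

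Desmosome genes had the lowest median of the roles with more than 2 tested genes, at -1.97. Dsp, Dsc2, Dsg2 and Pkp2 fell (80.0% of those tested, against 24.0% of all genes tested) and Perp did not pass. Dsp (chromosome 13, 38151294 to 38198577) encodes desmoplakin, which anchors keratin filaments. It stood at 3.46, 0.750, 1.01, 1.07 and 1.2 FPKM in Mettl3-ASO libraries, against 9.25, 8.38, 5.17, 2.76 and 3.40 FPKM in ASO-Control libraries. Mettl3-ASO replicate 1 reached into the control range and the other 4 libraries stayed below it. The log2 fold change of Dsp was -1.97 ± 0.30 (edgeR, adjusted p = 2.1e-04), beside the fall of the keratin gene Krt18 given above.

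The desmosomal cadherins desmocollin 2 and desmoglein 2 are encoded by Dsc2 and Dsg2, both on chromosome 18. Dsc2 was at 0.390, 0.10, 0.120, 0.280 and 0.0700 FPKM in Mettl3-ASO libraries, against 4.30, 2.79, 1.28, 0.600 and 0.580 FPKM in ASO-Control libraries. The groups were apart, at low depth: 77 counts in all in the Mettl3-ASO libraries and 681 in the ASO-Control libraries. Its fall was 8.0-fold (log2 fold change of -3.00 ± 0.49, edgeR, adjusted p = 3.4e-04). Dsg2 was at 1.90, 1.13, 0.560, 0.820 and 0.650 FPKM in Mettl3-ASO libraries, against 4.74, 5.04, 3.16, 2.97 and 2.41 FPKM in ASO-Control libraries. These ranges were apart as well, and the log2 fold change was -1.97 ± 0.19 (edgeR, adjusted p = 8.5e-06).

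Pkp2, which encodes the linker plakophilin 2, ran from 4.23 to 8.87 FPKM in Mettl3-ASO libraries and from 5.16 to 14.5 FPKM in ASO-Control libraries, with a log2 fold change of -0.90 ± 0.25 (edgeR, adjusted p = 0.00964). Perp, which encodes a desmosome-associated membrane protein, was at 43.3, 27.1, 20.9, 12.8 and 24.1 FPKM in Mettl3-ASO libraries, against 62.6, 63.4, 28.8, 15.9 and 19.9 FPKM in ASO-Control libraries. The Mettl3-ASO values spread within and below the control range. A log2 fold change of -0.48 ± 0.23 was fitted (edgeR, adjusted p = 0.0984), and the adjusted p was 0.0364 without Mettl3-ASO replicate 5, 0.032 without ASO-Control replicate 4 and 0.0361 with the replicate block. Pkp3, not tested, was at 0.310 to 1.10 FPKM in Mettl3-ASO libraries and 0.200 to 0.900 FPKM in ASO-Control libraries.

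The connexin genes encode gap junction channels. Gja1 (connexin 43) ran from 101 to 202 FPKM in Mettl3-ASO libraries and from 88.3 to 129 FPKM in ASO-Control libraries, with a log2 fold change of 0.17 ± 0.14 (edgeR, adjusted p = 0.31). Gjb5 (chromosome 4, 127354809 to 127358181) was at 9.04, 4.64, 2.47, 1.78 and 2.87 FPKM in Mettl3-ASO libraries, against 16.8, 18.1, 6.28, 7.92 and 7.98 FPKM in ASO-Control libraries. Only Mettl3-ASO replicate 1 reached the control range, and within each batch the groups were apart. Its fall was 2.98-fold (log2 fold change of -1.58 ± 0.21, edgeR, adjusted p = 8.4e-05).

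Integrins join cells to the extracellular matrix, and both genes fell. Itgb1 (chromosome 8, 128685654 to 128733200), the gene of the common beta subunit, was at 12.6, 8.02, 4.35, 6.67 and 6.12 FPKM in Mettl3-ASO libraries, against 23.6, 21.5, 13.3, 13.7 and 13.4 FPKM in ASO-Control libraries. The ranges did not meet, and the log2 fold change was -1.25 ± 0.15 (edgeR, adjusted p = 3.3e-05). Itga6, the gene of a laminin-binding alpha subunit, was at 4.60, 2.43, 1.83, 4.24 and 5.25 FPKM in Mettl3-ASO libraries, against 8.67, 9.92, 5.15, 5.90 and 6.62 FPKM in ASO-Control libraries. Mettl3-ASO replicate 5 just passed the lowest control, and the log2 fold change was -1.0 ± 0.27 (edgeR, adjusted p = 0.00882).

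Levels also differed between the batches. In the ASO-Control group both untagged libraries lay above all batch 2 libraries for 26 of the 37 genes (70.3%), against 37.3% of all genes tested, and this held in both groups for 15 (40.5%), against 19.0%. Mettl3-ASO replicate 1 was the highest of its group for 29 of the 37 (78.4%), against 49.7% of all genes tested. It was the lowest of its group for 0 of the 37, against 13.8% of all genes tested. Despite these levels, the log2 fold change had one sign in both batches for 36 of the 37 genes (97.3%), against 85.5% of all genes tested, the exception being Pard6a at 0.19 in the untagged libraries and -0.36 in batch 2. The largest gap was that of Dsc2, at -3.90 in the untagged libraries and -2.41 in batch 2, followed by Msn at -1.38 and -0.02. In edgeR's test of the group by batch interaction, 0 of the 9522 genes passed, and 159 had an unadjusted p under 0.05. None of the 37 genes was among the 159, and the smallest unadjusted p of a member was 0.104.

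Fitted within batch 2 alone (3 libraries against 3), 15 of the 37 genes fell (40.5%, against 18.9% of all genes tested) and 1 rose (Crb3, against 20.2%), with a median of -0.68. In the untagged libraries alone (2 against 2), 8 fell (21.6%, against 2.47% of all genes tested) and 0 rose (against 3.79%) in edgeR's test, with a median of -0.87. At an unadjusted p under 0.05, 18 members were lower and 1 was higher, against 12.2% and 14.7% of all genes tested. The 8 were Ctnna1, Epcam, Cldn6, Cldn7, Pard3, Dsc2, Dsg2 and Itgb1, and all of them also fell in batch 2. Without Mettl3-ASO replicate 1, the highest library of its group for most members, 21 fell and 3 rose, against 24.6% and 25.8% of all genes tested, and the median was -0.91. Mpp5 was not called there (adjusted p = 0.0838 in edgeR's test) and Jup was (0.0267). When the batch term was replaced by the replicate number, 25 fell and 5 rose, against 27.5% and 27.6% of all genes tested.

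**Figure D3:**
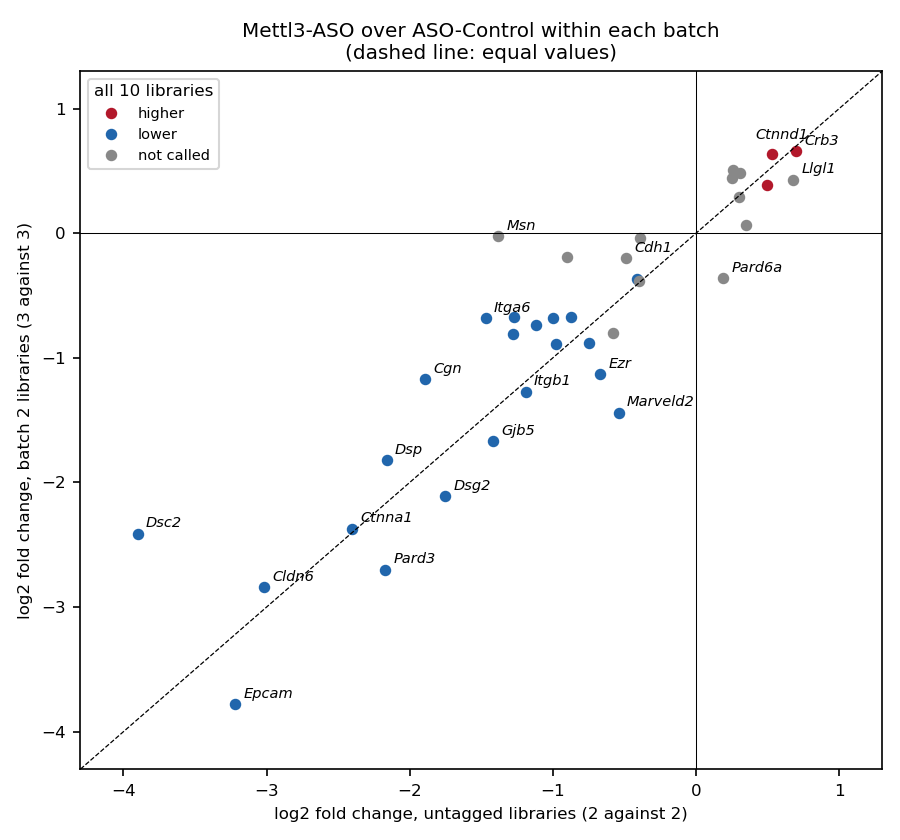
Log2 fold change of Mettl3-ASO over ASO-Control in batch 2 (vertical axis, 3 libraries against 3) and in the untagged libraries (horizontal axis, 2 against 2) for the 37 tested genes, coloured by the call over all 10 libraries, with a dashed line of equality. Both values have the same sign for 36 genes, and Pard6a (0.19 untagged, -0.36 in batch 2) is the exception.

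Ratios of FPKM between partners and paralogs were compared by two-sided exact permutation of group labels within batches, where 120 relabellings allow no p below 0.0167, with adjustment over 9 ratios. The Ctnna1 to Cdh1 ratio was 0.636, 0.684, 0.633, 0.908 and 0.711 in Mettl3-ASO libraries, against 2.14, 2.88, 3.26, 3.40 and 3.46 in ASO-Control libraries. The ranges were apart, with means of 0.714 ± 0.113 and 3.03 ± 0.544 (SD, n = 5 each, exact permutation p = 0.0167, adjusted 0.05). The Ctnnd1 to Cdh1 ratio went the other way, at 1.06 ± 0.274 in Mettl3-ASO libraries and 0.569 ± 0.207 in ASO-Control libraries (exact permutation p = 0.0333, adjusted 0.06). The Ctnnb1 to Cdh1 ratio was 2.76 ± 0.632 in Mettl3-ASO libraries and 1.80 ± 0.543 in ASO-Control libraries (exact permutation p = 0.0333, adjusted 0.06). Cldn6 made up 4.30 ± 1.75% of the summed FPKM of Cldn4, Cldn6 and Cldn7 in Mettl3-ASO libraries and 15.5 ± 3.26% in ASO-Control libraries (exact permutation p = 0.0167, adjusted 0.05). The highest Mettl3-ASO share of Cldn6 was 6.86%, below the lowest control share of 11.6%.

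Ezr made up 13.9 ± 6.01% of the summed FPKM of Ezr, Rdx and Msn in Mettl3-ASO libraries and 28.2 ± 5.65% in ASO-Control libraries, again without overlap (exact permutation p = 0.0167, adjusted 0.05). These adjusted values lie at 0.05 and not under it, so none of the 9 ratios passed, although 5 had an unadjusted p under 0.05. Ratios with an exact permutation p of 0.0167 had reached the smallest p that the relabellings allow. For these, missing the threshold is a limit of the test and does not show that the ratios were equal. The share of Prkci in Prkci plus Prkcz was 51.1 ± 8.37% in Mettl3-ASO libraries and 50.8 ± 5.94% in ASO-Control libraries (exact permutation p = 0.983). Pard6b made up 58.3 ± 13.5% of the 3 Pard6 genes in Mettl3-ASO libraries and 52.4 ± 7.27% in ASO-Control libraries (exact permutation p = 0.417). Llgl2 made up 28.6 ± 5.99% of the Llgl genes in Mettl3-ASO libraries and 30.0 ± 4.76% in ASO-Control libraries (exact permutation p = 0.667). Tjp1 made up 87.3 ± 6.09% of Tjp1 plus Tjp3 in Mettl3-ASO libraries and 82.7 ± 6.31% in ASO-Control libraries (exact permutation p = 0.217).

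**Figure D4:**
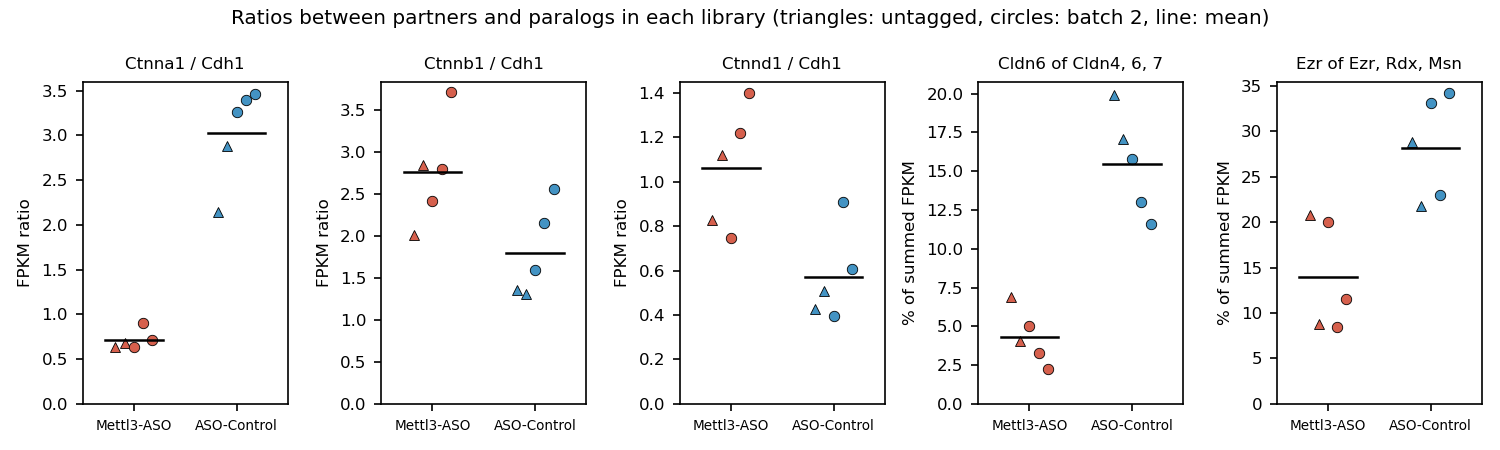
FPKM ratios of 3 catenin genes to Cdh1 and shares of Cldn6 and Ezr within their families, in each library, with Mettl3-ASO left of ASO-Control, triangles for untagged libraries, circles for batch 2 and a line at the mean. The Ctnna1 ratio (0.633 to 0.908 against 2.14 to 3.46), the Cldn6 share and the Ezr share do not overlap between the groups, and the other 2 ratios do.

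Pard3 also differed in the transcript length that the tables give, which is a mean over isoforms weighted by their estimated abundance. The deposited length of Pard3 was 5153 ± 420 bases in Mettl3-ASO libraries and 4033 ± 54.7 bases in ASO-Control libraries (SD, n = 5 each), with ranges of 4744 to 5650 and 3937 to 4071 bases. This difference of 0.35 ± 0.05 on the log2 scale passed limma's test (adjusted p = 0.00465 over 2637 genes whose length varied, of which 8.12% passed). Because FPKM divides by length, the fold change of Pard3 with a length offset was -2.87 on the log2 scale. The Mettl3-ASO lengths rest on the 204 counts given above. Of 14 members with a varying length, Pard3 alone passed with all libraries. Cldn7 was next, at 1248 ± 29.3 bases in Mettl3-ASO libraries and 1299 ± 9.62 bases in ASO-Control libraries (limma, adjusted p = 0.0738).

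Transcripts of the set were also searched for GGACT, a common form of the sequence that the Mettl3 enzyme methylates. In the longest protein-coding GENCODE transcript of each gene, the median was 0.98 sites per kilobase over the 37 tested genes and 1.02 over the tested genes with a transcript. It was 0.85 for the 21 genes that fell, 0.685 for the 3 that rose and 1.28 for the 13 that did not pass. Over all tested genes it was 0.98 for those that fell, 1.06 for those that rose and 1.02 for those that did not pass. The median transcript was 3733 bases long in the set and 2727 bases long over the tested genes. The sites are letters in a sequence, and methylation was not measured.

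Other genes of the same processes were read from lists kept apart from the 40 genes. These lists, here and below, were also chosen with earlier results of these data known. Their counts are therefore not independent evidence of a direction. Among 21 tested actomyosin genes of compaction, 16 fell and 5 did not pass (76.2% lower, against 24.0% of all genes tested, median log2 fold change of -0.58). The 3 with the smallest p were Pfn1, the gene of the actin monomer-binding protein profilin, at 789 ± 264 FPKM in Mettl3-ASO libraries and 2108 ± 208 FPKM in ASO-Control libraries (SD, n = 5 each; log2 fold change of -1.48 ± 0.13, edgeR, adjusted p = 4.3e-06), the myosin light chain gene Myl12b (-0.91 ± 0.10, adjusted p = 2.0e-05) and the cofilin gene Cfl1 (-0.89 ± 0.11, adjusted p = 3.1e-05). Of 18 tested genes of other adhesion and junction proteins, 8 fell (44.4%, against 24.0% of all genes tested) and 4 rose (22.2%, against 25.4%), with a median of -0.49. Vcl, the gene of vinculin, which binds alpha-catenin under tension, fell by 1.45 ± 0.20 on the log2 scale (edgeR, adjusted p = 1.0e-04). Actn4, an actin crosslinker gene, fell by 0.62 ± 0.12 (adjusted p = 0.00101), and the connexin gene Gjc1 rose by 1.63 ± 0.33 (adjusted p = 0.00135).

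Other polarity genes had no common direction, with 2 lower (18.2%, against 24.0% of all genes tested) and 4 higher (36.4%, against 25.4%) of 11 tested. Their median was 0.02 over all libraries and -0.03 in batch 2 alone. Cdc42, a small GTPase that activates the Par complex, averaged 505 ± 38.4 FPKM in Mettl3-ASO libraries and 934 ± 127 FPKM in ASO-Control libraries (SD, n = 5 each; log2 fold change of -0.93 ± 0.11, edgeR, adjusted p = 2.6e-05). Dlg3, a paralog of Dlg1, rose by 1.80 ± 0.28 (edgeR, adjusted p = 2.0e-04), where Dlg1 fell. Ecd, listed with them, rose by 0.94 ± 0.16 (edgeR, adjusted p = 3.9e-04). Of 6 tested genes on a list of pumps and channels, 2 fell (33.3%, against 24.0% of all genes tested) and 2 rose (33.3%, against 25.4%). Atp1b1, which encodes a beta subunit of the sodium pump, fell by 1.43 ± 0.18 on the log2 scale (edgeR, adjusted p = 5.3e-05). The aquaporin gene Aqp11 rose by 2.27 ± 0.32 (edgeR, adjusted p = 1.3e-04), and its part in filling the blastocoel was not tested.

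A further list held 8 transcription factors tied to polarity or the trophectoderm, and their order of action was not tested. Of these, 4 fell (50%, against 24.0% of all genes tested) and 1 rose (12.5%, against 25.4%), with a median of -0.52. Beside Gata3, given above, Tead1 fell by 1.10 ± 0.22 on the log2 scale (edgeR, adjusted p = 0.00123) and Klf5 by 0.87 ± 0.18 (adjusted p = 0.00185). The genes of the factors whose motifs were searched in the promoters, Tfap2c (AP-2 gamma) at -0.16 ± 0.14 (edgeR, adjusted p = 0.362) and Tead4 at 0.17 ± 0.13 (adjusted p = 0.274), did not pass.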

How the data were processed

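Per the labels' protocols, polyadenylated RNA was amplified and made into libraries with SMART-Seq v4 PLUS. STAR 2.7.10, RSEM 1.3.3 and the build mm10 are named in the submitters' processing notes. The annotation release and the use of strand in counting are not given in the sources used here, so overlapping genes on opposite strands cannot be told apart. The authors deposited expected counts, in which RSEM divides multi-mapped reads among genes by estimation, along with FPKM, TPM (not used for tests) and lengths per gene. The members and lists were chosen with earlier results of these data known.

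After rounding to whole numbers, the expected counts of all 10 libraries were tested with edgeR 4.0.16 (quasi-likelihood test, TMM scaling, terms for batch and group, R 4.3.3). Tests covered the 9522 genes whose FPKM averaged at least 1, with Benjamini-Hochberg adjustment over them and a threshold of 0.05. Errors of fold changes are absolute log2 fold changes divided by the root of F. Lengths were tested with limma 3.58.1. DESeq2 1.42.0, limma on log2(FPKM + 1), other scalings and filters, each batch alone, a replicate block and leaving out each library were alternatives. Groups and replicate numbers came from the titles. Same-numbered libraries deviated together from their group and batch means. The correlation was 0.273 for numbers 1 and 2, which is a single value, because 2 libraries deviate from their mean equally and in opposite directions. For 3, 4 and 5 it was 0.174, 0.147 and 0.105, values that share their means and so are not independent. The blocked value is therefore printed where it changes a call. The labels state no pairs.

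Values in every library were given for members called with a log2 fold change of at least 1 in size, for Cdh1 and for members whose call changes when 1 library is left out. In other lists the 3 genes with the smallest p were named, except for 1 that is not reported here, Tfap2c and Tead4 were named for their motifs, and Nanog after its values were seen. Positions are from GENCODE M21 (GRCm38). Counts carry no molecular identifiers, so depth covers counting error only. All 8 pairs of libraries of one group and batch differed by more than sampling noise (lowest chi-square per degree of freedom of 21.2). The test was checked on simulated counts of 9522 genes, 200 of them changed. It recovered 65% of 2-fold changes and 96% of 4-fold changes, and 6.94% of its calls were false. These rates may differ in the data, where 49.4% of genes were called.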

Additional observations from a re-analysis of the deposited data

Results flagged for a closer look

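For each of the 40 genes and each group, the highest and the lowest of the 5 FPKM values were set against the others by Dixon's criterion (gap over range above 0.71). Of 80 groups, 10 held such a library (12.5%), and 8 of the 10 were Mettl3-ASO replicate 1. The criterion assumes values from a single population, and each group mixes both batches, so no chance rate is given. The 80 groups include those of Tjp3, Scrib and Pkp3, which were not tested. Over all tested genes the same criterion was met in 8.14% of groups, and Mettl3-ASO replicate 1 was the library in 50.3% of these. That library stood above the others of its group in Cdh1 (29.1 FPKM, the others 13.3 to 16.8), Epcam (79.2, the others 15.5 to 21.6), Cldn6 (23.6, the others 2.80 to 6.97) and Cldn7 (228, the others 90.1 to 121). It did so too in Tjp3 (1.44 FPKM, the others 0.380 to 0.680), Prkci (9.62, the others 3.06 to 4.96), Dsp (3.46, the others 0.750 to 1.2) and Gja1 (202, the others 101 to 127). ASO-Control replicate 1 stood above the others of its group in Llgl2 (2.34 FPKM, the others 0.990 to 1.37) and Pkp3 (0.900, the others 0.200 to 0.350).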

How the results depend on the processing

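Of 23 alternatives, the filter at a mean FPKM of at least 5 tested 25 of the 37 members and the others all 37. Cldn6, Cldn7, Ctnna1, Epcam and Itgb1 (called) and Gja1 (not called) kept direction and call in all 23; Dsc2, Dsg2 and Pard3 (called) and Llgl2, Pard6g and Tjp1 (not called) did so in the 22 run for them. Over the alternatives that use both batches, 21 of the 24 called members kept theirs wherever tested, and the 24 kept one sign wherever tested. In the untagged libraries alone, 596 genes and 8 members were called, 0 higher and 8 lower (edgeR); in batch 2 alone 1 member was higher. With a mean FPKM of at least 5, 13 of the 25 members tested were lower (26.8% of 6021 genes); with all genes 15 of these 25 were, and Mpp5 and Ezr lost their calls. The replicate block gave 5 members higher; the calls it added were Cdh1, Ctnnb1, Jup, F11r, Llgl1 and Perp, and it changed no other member's call. Without single libraries, 22 to 26 members were called, 3 to 4 higher and 19 to 22 lower, of 4194 to 4800 genes; by length 121 to 209 genes and 1 to 2 members were called. Of fold changes and ratios of members, those that changed sign were Pard6a (0.19 in the untagged libraries), Pard6b (-0.00 to 0.65 without single libraries, the lowest without Mettl3-ASO replicate 4), the Prkci share (log2 difference of -0.11 in batch 2 and of -0.09 to 0.07 without single libraries, below 0 without Mettl3-ASO replicate 1 or 4 or ASO-Control replicate 2, 3 or 4) and the Llgl2 share (0.00 in batch 2 and -0.17 to 0.03 without single libraries, above 0 without Mettl3-ASO replicate 1 or 4); none had passed, and the cause was not tested. The interaction test called 0 genes under RLE scaling and at a mean FPKM of at least 5 too. Depth limits Dsc2, Pard3 and the members with under 1 FPKM.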
